A study of Mus musculus with 5 samples.

Results

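Uninjured mouse hindlimb muscle held a small set of Prx1-lineage cells in which at least 3 of 7 genes, Inmt, Gdf10, Hhip, Pi15, Stc1, Fbln1 and Mmp3, were detected together. These Gdf10 Hhip Inmt progenitors, called the members here, were taken from the single-cell RNA-seq library of uninjured muscle (d0). A cell was retained with 350 to 8000 detected genes, under 20% of its unique molecular identifiers (UMIs, the counted transcript molecules) on mitochondrial genes and at least 1000 UMIs. It was a member with at least 1 UMI in at least 3 of the 7 markers. The rule took 235 of 4632 retained d0 cells, or 5.07% (exact binomial 95% interval 4.46 to 5.75%), among 29831 retained cells in the whole series. The measured values of the 7 markers chose the members, so those values are given as a description.

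The series has 5 libraries of GFP+ cells sorted from C57Bl/6 mice of genotype Prx1Cre;mTmG, in which limb mesenchymal cells that have expressed Cre under the Prx1 promoter, and their descendants, switch from a red to a green membrane label. Every group carries the same alleles, and the mice were males or females aged 10 to 14 weeks. The libraries are labelled d0 (uninjured), d3 and d5 after a non-stabilized tibial fracture, and d3 and d5 after polytrauma, a fracture with mechanical injury to the adjacent muscles. Cells came from the muscles around the tibia, digested after tendon and fat had been taken off. Cells of 2 mice were pooled for each library. With a single library for every condition, differences could not be tested over samples and no p-value is given. Every interval covers counting error only.

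The d0 library held 5653 barcodes and 18247307 UMIs. The members had a median of 3211 UMIs (lowest 1013, highest 8966), against 3667 for the other 4397 retained d0 cells. Mitochondrial genes took a median of 2.91% of UMIs in members and 3.16% in the others. Of the members, 1 shared its barcode with another library while holding fewer than 10 times the UMIs of that barcode there. Another count, of members among the 230 d0 cells with the highest doublet scores, was 13. The cell number that the study lists for d5 post-fracture equals the number of barcodes of the library labelled d3 post-polytrauma. Cartilage genes were highest in that same library, Col2a1 standing at 1525 CPM there and at 0.106 CPM in the one labelled d5 post-fracture, and Acan at 681 and 4.85 CPM. Across 7459 genes the log2(CPM + 1) profile of the library labelled d5 post-fracture had r = 0.982 with d3 post-fracture and 0.892 with d5 post-polytrauma. That of the library labelled d3 post-polytrauma had r = 0.838 and 0.932 with the same libraries. These correlations describe single libraries and carry no test. The labels of these libraries may be exchanged, and both are named here by their labels. The d0 library is not among them, and only the comparison between libraries at the end rests on them.

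Fibro-adipogenic progenitors (FAP), which the study groups with mesenchymal progenitors as FAP/MP, are the resident connective tissue cells of muscle. They sit between the fibres and around vessels, lay down extracellular matrix, feed signals to muscle stem cells, and after injury can give rise to fibrous, fatty, cartilaginous or bony tissue. The genes of the rule mostly encode secreted or matrix proteins. Gdf10 encodes a ligand of the TGF-beta superfamily, and Hhip a membrane protein that binds hedgehog ligands and is itself a target of hedgehog signalling. Inmt encodes indolethylamine N-methyltransferase, Stc1 the glycoprotein hormone stanniocalcin-1, Pi15 a secreted peptidase inhibitor, Fbln1 the matrix protein fibulin-1, and Mmp3 the matrix-degrading enzyme stromelysin-1.

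The 7 markers are spread over 6 chromosomes. By the GENCODE annotation of GRCm38, Inmt lies at chr6:55170626-55175043, Gdf10 at chr14:33923587-33937983 and Hhip at chr8:79965851-80058006. Pi15 lies at chr1:17601901-17630939, Stc1 at chr14:69029238-69041804, Fbln1 at chr15:85205949-85286535 and Mmp3 at chr9:7445822-7455975. The promoters of the 3 genes that name the cells are printed to show the sequence next to which these co-detected genes start. Each line comes from the 250 bases before the gene's start in RefSeq for GRCm38.p6, in the direction of transcription, and capitals mark matches to the TATA box letters TATAAA or the GC box letters GGGCGG, on either strand. The RefSeq start of Inmt lies inside the gene as GENCODE places it, so the 53 bases of its window within that gene are left off. The Inmt line is then chr6:55175044-55175240 on the minus strand, the Gdf10 window chr14:33923337-33923586 on the plus strand and the Hhip window chr8:80058009-80058258 on the minus strand.
Inmt: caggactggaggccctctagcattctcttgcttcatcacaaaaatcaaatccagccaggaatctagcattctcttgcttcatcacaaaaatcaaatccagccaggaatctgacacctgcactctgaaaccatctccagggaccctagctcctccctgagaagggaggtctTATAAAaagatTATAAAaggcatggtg
Gdf10: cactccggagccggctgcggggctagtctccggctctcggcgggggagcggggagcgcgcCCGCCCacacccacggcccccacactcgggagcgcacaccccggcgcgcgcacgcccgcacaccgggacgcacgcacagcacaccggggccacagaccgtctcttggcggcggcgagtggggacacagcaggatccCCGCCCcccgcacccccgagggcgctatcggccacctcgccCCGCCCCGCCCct
Hhip: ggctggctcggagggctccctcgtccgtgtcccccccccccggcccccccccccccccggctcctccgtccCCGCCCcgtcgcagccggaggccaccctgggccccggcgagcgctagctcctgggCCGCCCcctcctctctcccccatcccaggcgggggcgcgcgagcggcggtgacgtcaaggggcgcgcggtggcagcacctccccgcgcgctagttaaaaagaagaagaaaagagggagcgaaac
The Inmt window held TATAAA 2 times, starting 27 and 16 bases before the GENCODE start of the gene (80 and 69 before the RefSeq start), and no GGGCGG. The Gdf10 window held 4 GC boxes, the last 2 of which overlap by 1 base, and the Hhip window held 2, all on the opposite strand and without TATAAA. Over the whole 250 bases, GC content was 48% for Inmt, 78.8% for Gdf10 and 76% for Hhip, against a median of 52.4% over 32851 mouse windows of the same length. TATAAA was found in 12.4% of those windows and GGGCGG in 32.7%. CCAAT (33.8% of windows), the AP-1 letters TGANTCA (6.75%) and the GLI letters GACCACCCA (0.225%) were not found in these 3 windows. Mmp3, the only other marker with TATAAA in its window, also held 1 AP-1 match 46 bases before its RefSeq start. A window was found for 5 of the 7 markers, Pi15 and Stc1 being without one.

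Most d0 cells showed none or few of the markers. Of the retained cells, 2503 had none, 1476 had 1 and 418 had 2, while 134 had 3, 80 had 4, 15 had 5, 6 had 6 and none had all 7. A member held a median of 7 UMIs over the markers (lowest 3, highest 44), and in 31 members each detected marker rested on 1 UMI. When 1000 UMIs were drawn from every cell, so that depth was equal, 66 cells passed the rule. Cells just inside the threshold, with 3 markers, and cells just outside it, with 2, had median depths of 3329 and 3644 UMIs, and at least 2 FAP/MP markers in 85.8% and 87.3% of cells.

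**Figure D1:**
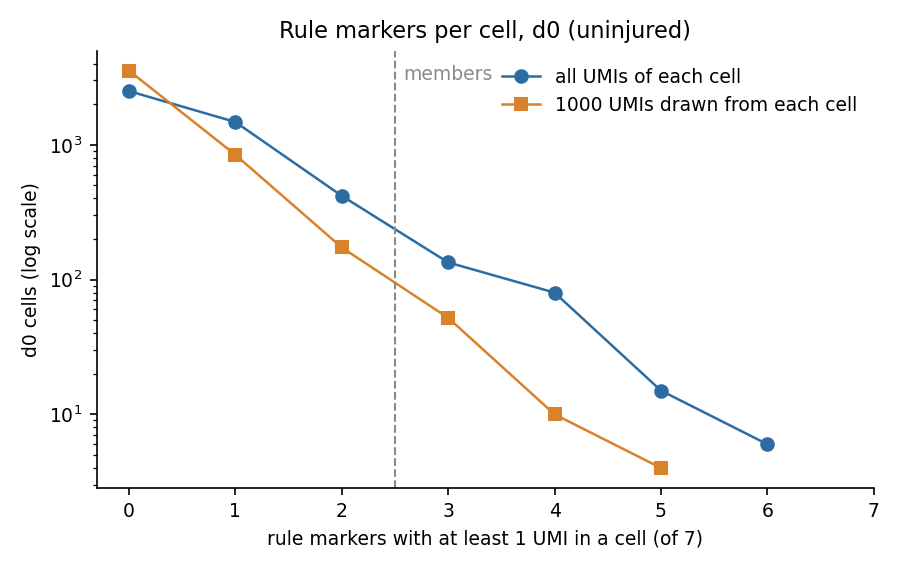
Number of d0 cells (log scale) by the number of rule markers with at least 1 UMI, with all UMIs of each cell (circles) and with 1000 UMIs drawn from each cell (squares). The dashed line is the threshold, with 235 members to its right at full depth and 66 at equal depth; counts of 0 are not drawn.

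The members did not all carry the same markers. Fbln1 was detected in 87.2% of them, Inmt in 79.6% and Gdf10 in 66.8%. Pi15 was detected in 37.9%, Hhip in 34.9%, Mmp3 in 25.5% and Stc1 in 22.6%. They fell into 52 combinations of markers, of which Inmt with Gdf10 and Fbln1 was the most frequent (30 cells). Of the 3 genes in the name, 34 members had all, 125 had 2, 74 had 1 and 2 had none. Inmt reached 33 UMIs in a cell and was at 2 or more UMIs in 128 members. Detection in single cells is sparse, so a marker at 0 in a member may be present below the depth.

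As levels, UMIs were summed over a set of cells and scaled to CPM, the UMIs of a gene per 1e6 UMIs of the set. Inmt stood at 1034 CPM in the members and 74.1 in the other d0 cells. Gdf10 stood at 374 and 22 CPM, Hhip at 151 and 14.7, Pi15 at 172 and 21.2, Stc1 at 123 and 2.71, Fbln1 at 513 and 84.6, and Mmp3 at 167 and 18.5. The rule itself fixes these differences. Cells with at least 3 of 9 mural (pericyte) markers and fewer than 2 FAP/MP markers served as a background of cells with another identity. Of these mural-marked cells 1 of 475 passed the rule (0.211%, interval 0.00533 to 1.17%), at a median depth of 4337 UMIs. By this definition none of the 3240 other d0 cells with at least 2 FAP/MP markers could be in the background, while 86.4% of the members carried such markers. The passing share therefore describes this background and does not test the rule. Inmt was found in 1.90% of the mural-marked cells outside the set and Mmp3 in 0.211%. Hhip was found in 9.28% of them and Pi15 in 11.4%, more often than in the other d0 cells with FAP/MP markers (4.10% and 5.37%), at median depths of 4345 and 3680.5 UMIs. Hhip and Pi15 therefore also occurred in mural-marked cells, in which Inmt, Gdf10, Stc1, Fbln1 and Mmp3 were each found in 2.95% or fewer.

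Each marker was also read in cells chosen by the other 6, after 1000 UMIs were drawn from every cell. The 7 genes were put together from earlier results on these cells, so these shares describe the set and do not test it. Inmt was found in 41.2% of cells with at least 2 of the other markers (56 of 136, interval 32.8 to 49.9%), against 6.80% of cells with none (259 of 3809). Gdf10 was found in 23.5% (17.6 to 30.3%) against 2.34%, and Fbln1 in 35.7% (27.8 to 44.2%) against 7.91%. Hhip was found in 8.02% (4.74 to 12.5%) against 1.69%, and Pi15 in 8.53% (5.13 to 13.1%) against 1.88%. Stc1 was found in 7.83% (18 of 230) against 0.253% (9 of 3559). Mmp3 was found in 6.16% (13 of 211) against 1.55%.

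Pair by pair, at the same depth, in 40 of the 42 ordered pairs a marker was found in a larger share of the cells with the other than of those without it. Of the 36 cells with Stc1, 19 also had Inmt (52.8%, interval 35.5 to 69.6%) and 17 had Fbln1 (47.2%), against 8.68% of cells without Stc1 for Inmt. Of the 181 cells with Gdf10, 58 had Inmt (32.0%) and 16 had Mmp3 (8.84%). The exceptions were Hhip and Mmp3, found together in 2 cells. Hhip was in 2.06% of the 97 cells with Mmp3 and in 2.27% of all retained cells. Over the 42 pairs, 30 had an interval above the share without the other marker, and an excess of Hhip with Mmp3 was not detectable at this depth.

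The label progenitor was checked against cell type markers that the rule did not use. At least 2 of the 5 FAP/MP markers (Prrx1, Cxcl12, Pdgfra, Ly6a and Cd34) were found in 203 members (86.4%, interval 81.3 to 90.5%), against 73.7% of the other d0 cells (72.4 to 75%). At 1000 UMIs per cell the shares were 50.6% (44.1 to 57.2%) and 45.4% (43.9 to 46.9%), with overlapping intervals. Pdgfra, the receptor that defines FAP, stood at 183 CPM in members and 156 CPM in all other d0 cells (ratio 1.17, interval 0.987 to 1.38). Cd34 stood at 613 and 692 CPM (0.885, 0.807 to 0.968), and Ly6a, which encodes Sca1, had a ratio of 1.09 (1.02 to 1.17). Prrx1 had a ratio of 1.45 (1.22 to 1.71) and Cxcl12 of 1.44 (1.31 to 1.59), so none of the 5 markers reached a ratio of 2 or fell to 0.5. None of the 235 members had 2 or more of the endothelial, hematopoietic, myogenic or perineurial markers, which allows a share of up to 1.56%. The other d0 cells had such shares of 0.591%, 0.205%, 0.136% and 1.27%, all under that bound. Ptprc, Csf1r, Cdh5 and Emcn were at 0 UMIs in the members, and Itgam, Pax7, Myod1 and Myf5 in all retained d0 cells. Schwann cell markers were paired in 2 members, osteoblast markers in 2 and chondrocyte markers in 1, and the 10 cell cycle genes in 1. Most members thus carried FAP/MP markers, as did most other cells of this sort, and the library has no measure of progenitor function.

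Smooth muscle and tendon markers were lower in the members than in all other d0 cells, with all 5 smooth muscle genes and all 4 measured tendon genes at a CPM ratio of 0.5 or less. Of all genes with a mean of at least 10 CPM, 6.05% were at 0.5 or less and 2.45% at 2 or more. The 5 smooth muscle genes summed to 844 CPM in members and 5803 CPM in the other d0 cells, Acta2 being the most abundant (323 and 2513 CPM). The 6 tendon genes summed to 357 and 2496 CPM, led by Fmod (137 and 1315 CPM), which encodes fibromodulin. The 9 mural genes summed to 309 and 891 CPM but went both ways, with 6 at 0.5 or less and 2 at 2 or more. Abcc9 had a ratio of 18.6 (11.8 to 29.2), Kcnj8 of 12.9 (7.41 to 22.1) and Pdgfrb of 0.958 (0.750 to 1.21). None of the genes of these lists was at 0 in the members. The part of mural and tendon cells in the differences from all other d0 cells was not tested. Each comparison was therefore also made with the 3240 other d0 cells that had at least 2 FAP/MP markers, called FAP/MP-marked cells here.

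Against all other d0 cells, 7294 genes had a mean of at least 10 CPM. Of these, 179 were higher in the members by a CPM ratio of 2 or more (2.45%) and 441 lower by a ratio of 0.5 or less (6.05%), with a median log2 ratio of -0.04 over all measured genes. Against the other FAP/MP-marked cells, 149 of 7258 genes were higher (2.05%) and 309 lower (4.26%), with a median of -0.06. Of the higher genes, 130 were called in both comparisons, and of the lower genes 210. A call here is a size of ratio and not a test. The 95% interval of the ratio lay above 1 for 177 of the 179 and 147 of the 149 higher genes, and below 1 for 423 of the 441 and 274 of the 309 lower genes.

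Among genes found in at least 10% of the members, the highest ratio beside the rule markers was that of Abcc9, at 49.2 CPM in the members (40 UMIs in 28 cells) against 2.65 CPM in all other cells and 2.35 in the FAP/MP-marked cells. The ratio to the latter was 20.9 (interval 12.7 to 35.0). Abcc9 encodes the sulfonylurea receptor SUR2, the regulatory subunit of ATP-sensitive potassium channels. Kcnj8, which encodes the pore subunit Kir6.1 of the same channels, stood at 29.5 CPM (24 UMIs in 13 cells) against 1.78 CPM, a ratio of 16.6 (8.89 to 31.0). The genes lie next to each other, Kcnj8 at chr6:142564837-142571614 and Abcc9 at chr6:142587862-142702315, both on the minus strand. Both are commonly used as pericyte markers and were the 2 higher genes of 8 measured on the mural list, where 3 genes were lower. Rgs5 stood at 7.38 CPM in members and 35.3 CPM in the FAP/MP-marked cells (ratio 0.209, interval 0.0764 to 0.459), Mylk at 75 and 159 CPM and Cspg4 at 12.3 and 26.9 CPM. Notch3, at 18.5 and 28.1 CPM, and Pdgfrb, at 93.5 and 100.2 CPM, were not called. The mural-marked d0 cells themselves held 1.97 CPM of Abcc9 and 7.38 CPM of Kcnj8.

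Of 9 measured antagonists of bone morphogenetic proteins (BMP), 3 were higher and none was lower, beside 2.05% and 4.26% of all measured genes. Chrdl1, chordin-like 1, stood at 95.9 CPM in members and 21.0 CPM in the FAP/MP-marked cells (ratio 4.57, interval 3.50 to 5.91), and Fstl3, a follistatin-like inhibitor of activin, at 25.8 and 5.68 CPM (4.55, 2.65 to 7.50). In cells with at least 2 of Meox1, Cyp2f2 and Dkk2, Chrdl1 stood at 77.8 CPM, inside the interval of its level in members (75.8 to 119.7 CPM). Fst stood at 123 and 110 CPM, and Fstl1 at 786 and 1203 CPM. None of the 3 measured BMP ligands beside Gdf10 (Bmp2, Bmp4 and Bmp5) was called, nor was Bmp1, a procollagen protease on the same list, Bmp2 standing at 94.7 and 154 CPM and Bmp4 at 95.9 and 108 CPM. Of the 10 measured BMP receptors, Smads and Id targets none was called against the FAP/MP-marked cells. Over the antagonist list the median log2 ratio was 0.17, against -0.06 over all genes measured.

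Complement genes formed another group. C2 stood at 118 CPM in members and 16.9 in the FAP/MP-marked cells (ratio 6.97, interval 5.41 to 8.91), C4b, whose near-identical neighbour C4a makes its count uncertain, at 73.8 and 17.5 CPM (4.21, 3.11 to 5.63) and Cfb at 73.8 and 34.3 CPM (2.15, 1.61 to 2.83). Of 9 measured complement genes 4 were higher and 1 lower, beside 2.05% and 4.26% of all measured genes. The median log2 ratio of the complement list was 0.68. The lower gene was Cd55, a membrane-bound complement regulator, at 39.4 and 191 CPM (0.206, 0.141 to 0.292). C3 was near even, at 419 and 469 CPM.

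Among chemokines, 3 of 11 measured genes were higher and none lower, beside 2.05% and 4.26% of all measured genes. Their median log2 ratio was -0.10. Ccl19, a ligand of the lymphocyte and dendritic cell receptor Ccr7, stood at 57.8 and 9.0 CPM (6.42, 4.47 to 9.11). Cxcl2 stood at 328 and 92.4 CPM (3.55, 3.1 to 4.06) and Cxcl5 at 52.9 and 23.4 CPM (2.27, 1.6 to 3.13), both neutrophil attractants. The UMIs of these were concentrated, with 267 of Cxcl2 in 22 members and 43 of Cxcl5 in 11, and the shares of cells with Cxcl2 were 9.36% and 7.13%. Ccl2 stood at 807 and 1317 CPM and Ccl11 at 1102 and 1741 CPM. Cxcl16, a further chemokine gene that is not on this list and was named by its ratio, stood at 135 and 44.0 CPM. The 14 immediate-early and heat shock genes, which respond to tissue dissociation, held none called, with Fos at a ratio of 1.11 and Hspa1a at 0.695.

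Wnt5a, a secreted Wnt ligand, stood at 60.3 and 18.7 CPM (3.22, 2.31 to 4.4), Gas6, a ligand of the TAM receptors that take part in clearing dying cells, at 298 and 87.3 CPM (3.41, 2.95 to 3.92), and Fgf7 at 112 and 40.1 CPM (2.79, 2.21 to 3.49). Of 7 measured Wnt antagonists 3 were higher, namely Sfrp4 at 583 and 217 CPM, Dkk3 at 52.9 and 20.6 CPM and Sfrp1 at 33.2 and 15.6 CPM. Wif1 was lower, at 19.7 and 42.6 CPM, while over all measured genes 2.05% were higher and 4.26% lower. The median log2 ratio of the list was 0.80. Angpt2 stood at 22.1 and 2.68 CPM on 18 UMIs (8.28, 4.39 to 15.1), and Pappa, a protease that frees insulin-like growth factors, at 41.8 and 16.9 CPM. Tgfb1 stood at 14.8 and 7.22 CPM and Tgfb2 at 33.2 and 95.5 CPM, the former called higher on 12 UMIs in 5 members and the latter lower. Of the 12 measured TGF-beta genes no other was called.

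**Figure D2:**
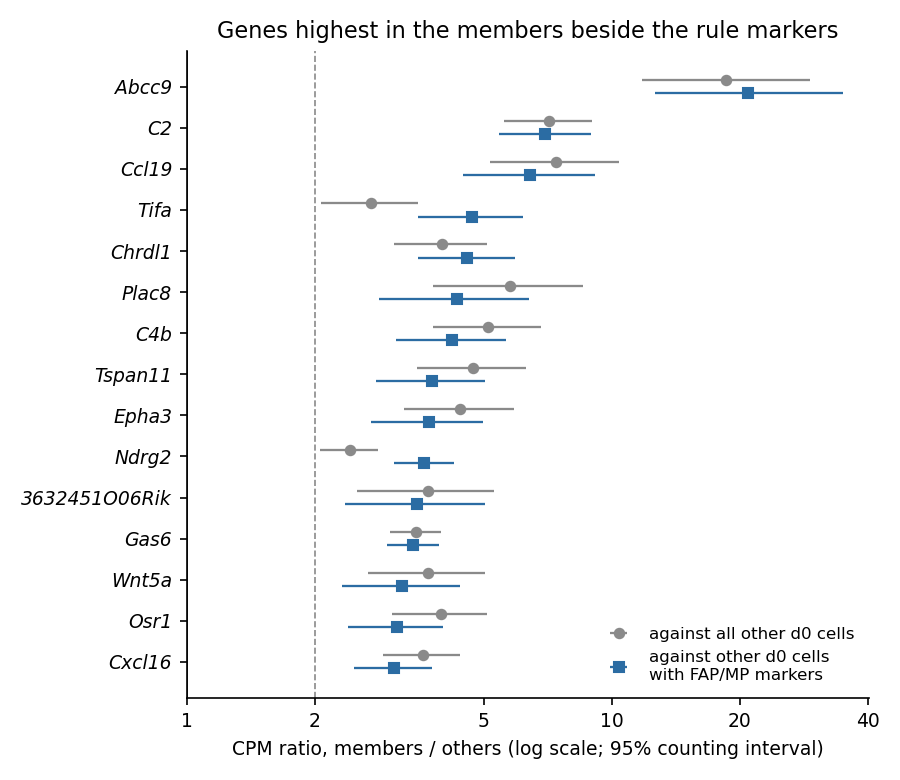
CPM ratio (log scale) of the members to all other d0 cells (circles) and to other d0 cells with FAP/MP markers (squares) for 15 of the 17 genes with the highest ratios, with 95% counting intervals. Abcc9 leads with ratios of 18.6 and 20.9, and the intervals of all genes drawn lie above 2 in both comparisons.

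Of 8 measured hedgehog pathway genes other than Hhip, 1 was higher and 1 lower, beside 2.05% and 4.26% of all measured genes. Gli1, the transcription factor most directly induced by the pathway, was the higher one, at 28.3 CPM in members (23 UMIs) and 9.32 in the FAP/MP-marked cells (ratio 3.03, interval 1.85 to 4.78). Ptch1, the receptor and also a target, stood at 16 and 8.51 CPM, with an interval of the ratio from 0.968 to 3.35. The coreceptors Gas1, Boc and Cdon had ratios of 1.48, 1.17 and 1.0, and the transducer Smo 1.16. Disp1, which releases the ligands from the cells that make them, was called lower on 6 UMIs. The ligand genes Shh, Ihh and Dhh were at 0 UMIs in the members.

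Of the transcription factors listed, 3 of 18 measured were higher and 1 lower, beside 2.05% and 4.26% of all measured genes. Osr1, which marks the connective tissue progenitors that give rise to FAP, stood at 91.0 and 29.2 CPM (3.12, 2.39 to 4.01), while its paralogue Osr2 was lower, at 77.5 and 183 CPM (0.424, 0.325 to 0.545). Nr2f2, which encodes COUP-TFII, stood at 130 and 51.4 CPM. Meox1 and Meox2 had ratios of 0.733 and 1.45. Other genes named by their ratio to the FAP/MP-marked cells were Tifa, an adaptor in NF-kB signalling (82.4 and 17.6 CPM), Epha3, an ephrin receptor (68.9 and 18.6 CPM), Ndrg2 (226 and 62.5 CPM), Plac8 (40.6 and 9.41 CPM), Tspan11 (72.6 and 19.2 CPM) and 3632451O06Rik (44.3 and 12.7 CPM). Tifa and Ndrg2 had lower ratios to all other d0 cells (2.71 and 2.42) than to the FAP/MP-marked cells (4.68 and 3.62).

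Of 12 measured genes of foreign compound metabolism 2 were higher and 1 lower, and of 11 measured retinoid genes 1 was higher and 1 lower, beside 2.05% and 4.26% of all genes. Aldh1a3, which makes retinoic acid, was lower, at 6.15 and 29.5 CPM. The retinoid list had a median log2 ratio of -0.12. Fmo2, a flavin monooxygenase, stood at 36.9 and 5.03 CPM (7.34, 4.58 to 11.5) and Cyp1b1 at 27.1 and 9.08 CPM, with Ces1d lower at 7.38 and 30.9 CPM. Apoe stood at 688 and 236 CPM (2.91, 2.65 to 3.18), the only called gene of 7 measured in the adipogenic list. Pparg and Adipoq were too low to be measured.

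The neurotrophic list held Ntrk2, the receptor of brain-derived neurotrophic factor, higher at 287 and 104 CPM (2.74, 2.38 to 3.16), as 1 higher gene of 6 measured, and Gfra1, at 13.5 and 39.7 CPM, as 1 of 2 lower genes. Of the 9 angiogenic genes Angpt2 and Fgf7 were higher and Fgf2 lower, and Pappa was the only called gene of 10 in the insulin-like growth factor list. Against the FAP/MP-marked cells 3 of 5 smooth muscle genes (Acta2, Myh11 and Tagln) and 2 of 4 measured tendon genes (Fmod and Thbs4) were lower and none was higher. Slc2a1 of the perineurial list and Tek of the endothelial list were the only measured genes of those lists, and both were lower. No hematopoietic or myogenic gene was high enough to be measured, and none of the measured genes for Schwann cells (2), chondrocytes (1), osteoblasts (2) or the cell cycle (1) was called. None of 7 interferon-inducible genes, 3 Hox genes or 5 FAP/MP markers was called. The FAP/MP-marked cells were chosen by those 5 markers and the members were not, so the choice partly fixes their ratios here.

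Elastic fibre genes went both ways, and basement membrane genes were called only as lower. Eln, tropoelastin, stood at 876 and 349 CPM (2.51, 2.32 to 2.72) and Mfap4 at 819 and 354 CPM (2.32, 2.13 to 2.51). Efemp1 at 51.7 and 177 CPM, Fbn1 (fibrillin-1) at 338 and 815 CPM and Emilin2 at 46.7 and 98.5 CPM were lower, so that the list of 15 measured genes held 2 higher and 3 lower. Of 13 basement membrane genes none was higher and 5 were lower, with a median log2 ratio of -0.76. They were the laminin chains Lamb1 (35.7 and 136 CPM) and Lama4 (34.4 and 90.3 CPM), Hspg2, which encodes perlecan (213 and 469 CPM), Nid2 and Col18a1. None of the 13 fibrillar and associated collagen genes was called. Mmp13, a collagenase, was the only called gene of 8 measured metalloproteinases and inhibitors beside Mmp3, at 59 and 16 CPM, but all of its 48 UMIs in the members came from 1 cell. Podn was the only higher proteoglycan, at 153 and 76.1 CPM.

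The genes lower in the members included most of those that mark another FAP/MP type. Of the 10 genes that mark a Pi16 Dpp4 type in this library, 9 were lower and none higher against the FAP/MP-marked cells, with a median log2 ratio of -1.66. That list was drawn from earlier results on these cells and is not independent evidence. Pi16 stood at 578 and 1554 CPM (0.372, 0.339 to 0.408), Dpp4, a surface peptidase, at 6.15 and 41.7 CPM (0.148, 0.0477 to 0.347) and Stmn4 at 23.4 and 120 CPM. Among genes found in at least 10% of the FAP/MP-marked cells, the 10 lowest ratios also held Pla1a (17.2 and 117 CPM), a phospholipase, Enpp2 (35.7 and 194 CPM), which encodes autotaxin, Nppc (23.4 and 124 CPM), which encodes C-type natriuretic peptide, Tek (9.84 and 49.8 CPM), Rras, Limch1 and Aif1l. Of the 9 genes of the Hsd11b1 list 3 were lower and 1 higher. Hsd11b1, Cmklr1 and Mme had ratios of 0.375, 0.394 and 0.362, Podn 2.01, and Lum and Col15a1 0.975 and 0.930. All 3 measured genes of the Dlk1 list, Dlk1, Trf and Saa1, were lower. None of the 4 Meox1 genes was called. Against all other d0 cells, with the same limit of 10% of those cells, the lowest ratios were those of Apold1, Ccrl2, Bcam, Tinagl1, Lcmt2, Vps37b, Map3k7cl, Nrip2, Fmod and Gm13889, at ratios of 0.108 or less. Apold1 rested on 1 UMI in the members (ratio 0.0163, interval 0.000414 to 0.0912). Against the FAP/MP-marked cells the same 10 genes had ratios from 0.0444 to 0.334.

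**Figure D3:**
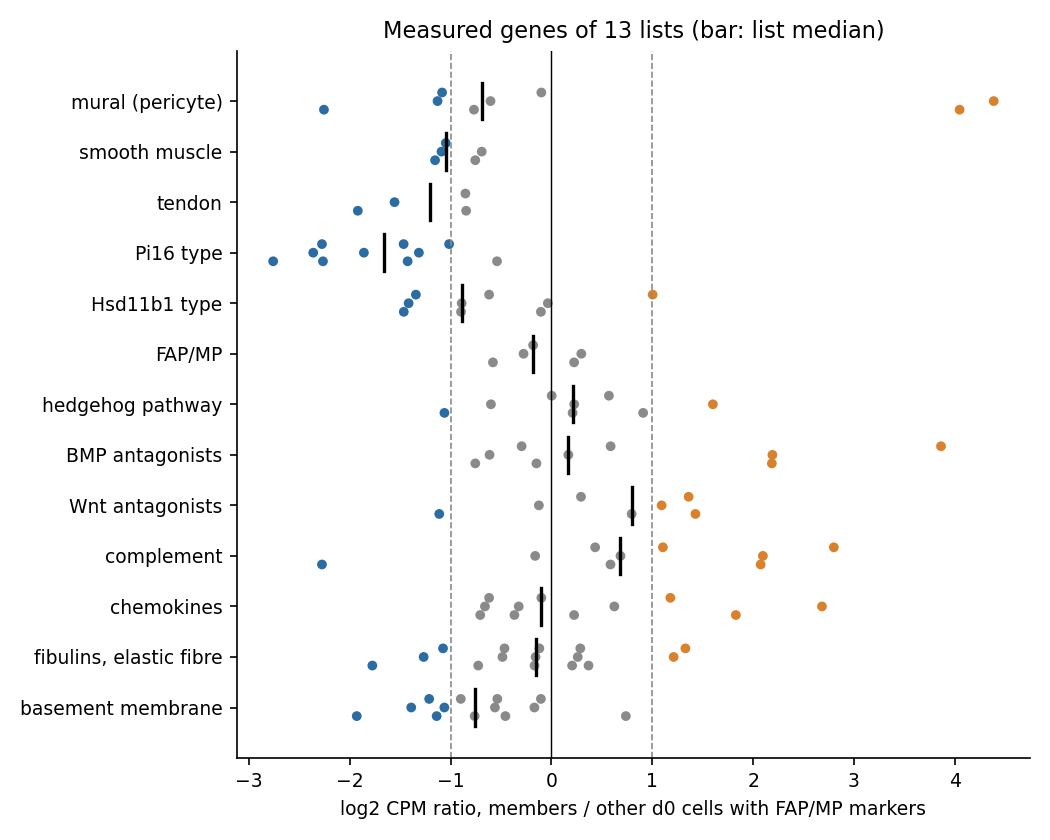
Log2 CPM ratio of members to other d0 cells with FAP/MP markers for each measured gene of 13 lists. Orange points are genes at a ratio of 2 or more, blue points genes at 0.5 or less, and bars the list medians, which run from -1.66 (Pi16 type) to 0.80 (Wnt antagonists).

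Seen per cell, the overlap with the other types differed with the genes and with the comparison cells used, which changed together here. At least 2 of Pi16, Stmn4 and Dpp4 were found in 9 members (3.83%, interval 1.77 to 7.15%), against 21.5% of the other FAP/MP-marked cells (20.1 to 22.9%). At least 2 of Hsd11b1, Cmklr1 and Mme were found in 7 members (2.98%, 1.21 to 6.04%) against 13.6% (12.4 to 14.8%). At least 2 of Meox1, Cyp2f2 and Dkk2 were found in 5 members (2.13%, 0.694 to 4.90%) against 2.93%, with overlapping intervals. On the full lists, at least 2 of 9 Hsd11b1 genes were found in 91.1% of members and 63.9% of the other d0 cells, and in 57.0% and 42.8% at 1000 UMIs per cell. At least 2 of 10 Pi16 genes were found in 48.9% and 55.3% of cells (18.3% and 33.4% at 1000 UMIs), and at least 2 of 4 Meox1 genes in 8.94% and 9.05%. The median depths of the cells with the Pi16 and Hsd11b1 sets were 4388 and 3911.5 UMIs, above that of the members. Of the rule markers, Gdf10 was present in cells with the Meox1 set at 90.5 CPM and Fbln1 at 170 CPM, and Inmt in cells with the Hsd11b1 set at 107 CPM, while Stc1 was at 2.10 CPM or less in all of these sets. Other genes named as higher in the members were also present with the Meox1 set. There Chrdl1 stood at 77.8 CPM, Gas6 at 198, C2 at 63.1, C4b at 42.1, Sfrp4 at 389 and Sfrp1 at 44.2 CPM. Sfrp1 stood at 33.2 CPM in members. Osr1 (12.6 and 29.2 CPM) and Tifa (8.42 and 17.6) were lower with this set than in the FAP/MP-marked cells. Plac8 (6.31 and 9.41), Epha3 (14.7 and 18.6) and Ndrg2 (56.8 and 62.5) were somewhat lower. Abcc9 was near even, at 2.10 and 2.35 CPM. The Meox1 set held 108 cells outside the members, so low levels in it rest on few UMIs.

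The retained d0 cells were clustered with the 7 rule markers left out of the variable genes, which gave 12 clusters. Cluster 5 (342 cells, median depth 2372.5 UMIs) held 150 of the 235 members (63.8%, interval 57.3 to 70.0%), and members made up 43.9% of it (38.5 to 49.3%). Its leading genes included Inmt, Gdf10, C2, Hhip, Pi15, Fbln1, Chrdl1, Osr1 and Cxcl16. The other 85 members were spread out, with 29 in cluster 3, led by Clu and Meox1, 26 in cluster 1, led by interferon-inducible Ifi genes, 10 in cluster 4, led by G0s2 and Hsd11b1, and 5 or fewer in each remaining cluster. Cluster 2, led by Stmn4 and holding Pi16, had 590 cells of which 3 were members (0.508%). Members in cluster 5 had a median of 4 markers at 2821.5 UMIs, and members elsewhere 3 markers at 4278 UMIs. At least 2 FAP/MP markers were found in 82.0% of the former (interval 74.9 to 87.8%) and 94.1% of the latter (86.8 to 98.1%). Over all its cells cluster 5 stood at 79.5%, below clusters 1, 2, 3 and 4 (92.0%, 98.1%, 93.4% and 92.0%), which had higher median depths. The part of depth in this was not tested.

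**Figure D4:**
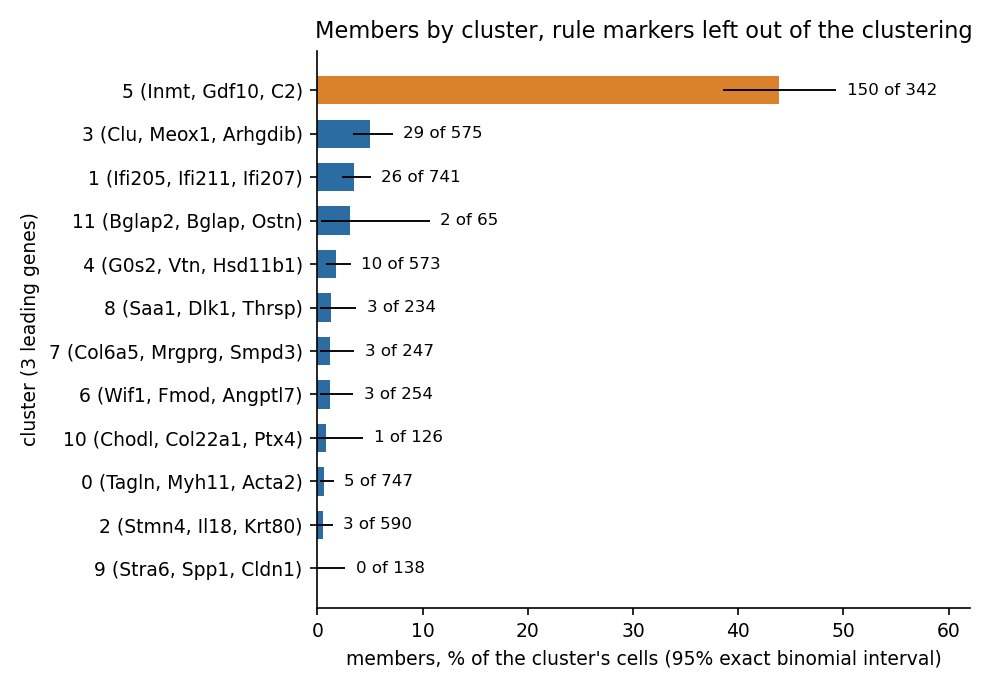
Members as a percentage of each cluster's cells, with exact binomial 95% intervals and the numbers of cells; clusters were made without the rule markers and are labelled by number and 3 leading genes. Cluster 5 reaches 43.9% and every other cluster is at 5.04% or below.

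Members outside cluster 5 shared only some of its genes. Abcc9 was at 84.0 CPM in members of the cluster and 10.4 CPM in members elsewhere, C2 at 198 and 28.6 CPM and Wnt5a at 100.3 and 15.6 CPM. C4b stood at 60.7 and 88.5 CPM and Mmp3 at 168 and 167 CPM. Of the 17 genes named as highest, 12 were at a ratio of 2 or more in members elsewhere against the other cells elsewhere, and 14 were above 1. Inside cluster 5, 16 of the 17 were higher in members than in the cluster's other cells, but only 1 at a ratio of 2 or more. C4b was lower there, at 60.7 and 79.9 CPM. The 192 cells of cluster 5 that were not members were shallower, with a median of 2093.5 UMIs, and a median of 2 markers. All 17 genes stood higher in them than in other cells elsewhere, such as Abcc9 at 54.0 and 1.30 CPM and Cxcl16 at 127 and 35.4 CPM. The clusters were built from the variable genes of the same cells, so this describes the cluster and does not test it.

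The same 17 genes were read by the number of markers in a cell. They were chosen for their level in cells with 3 or more markers, so steps across that threshold are largely fixed by the choice. Of them, 15 stood higher in cells with 2 markers than in cells with none, 16 in cells with 3 than with 2 and 16 in cells with 4 than with 3. Abcc9 stood at 1.31 CPM in cells with none, 2.93 with 1, 9.17 with 2, 22.8 with 3, 71.9 with 4 and 151 with 5 or more. C2 stood at 11.3, 16.2, 47.7, 78.8, 163 and 227 CPM in the same order. Tifa and Ndrg2 did not follow this order, standing at 35.4 and 97.3 CPM in cells with none and 28.1 and 87.4 CPM in cells with 2.

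Within the members, the 17 genes were compared between cells with and without each marker, in 119 comparisons, of which 26 had an interval of the ratio above 1 and 4 below 1. UMIs of 1 cell are not independent, so these intervals are too narrow. For Stc1, 10 of the 17 intervals lay above 1. C2 was at 203 CPM in the 53 members with Stc1 and 96 CPM in the 182 without (2.12, 1.35 to 3.26), and Osr1 at 161 and 72.8 CPM. For Mmp3, none lay above 1 and 4 below. Gas6 was at 165 CPM in the 60 members with Mmp3 and 352 CPM in the 175 without (0.469, 0.324 to 0.663). Stc1 was found in 30% of members in cluster 5 and 9.41% of members elsewhere, and Mmp3 in 20% and 35.3%. C2, Osr1 and Gas6 were themselves at 198, 138 and 406 CPM in members of that cluster and at 28.6, 39.0 and 177 CPM in members elsewhere. The part of the clusters in these differences was not tested. Abcc9 was at 87.2 CPM with Hhip and 29.8 CPM without (2.93, 1.49 to 5.90), Ndrg2 at 273 CPM with Inmt and 87.4 CPM without (3.13, 1.92 to 5.41), and C4b at 95.6 CPM with Gdf10 and 29.7 CPM without. The marker genes themselves are not compared in this way, since a cell with 1 of them needs fewer of the others to pass.

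Across the libraries, cells meeting the rule at equal depth were mainly those of uninjured muscle. After 1000 UMIs were drawn from every retained cell, 66 of 4632 cells passed at d0 (1.42%, interval 1.1 to 1.81%). None of 5589 passed at d3 post-fracture, which allows a share of up to 0.0660%, and 3 of 6201 passed in the library labelled d5 post-fracture (0.0484%, 0.00998 to 0.141%). In the library labelled d3 post-polytrauma 7 of 1468 passed (0.477%, 0.192 to 0.980%), and at d5 post-polytrauma 3 of 11941 (0.0251%, 0.00518 to 0.0734%). At full depth the shares were 5.07% at d0, then 2.68%, 3.27%, 23.8% and 2.64% in the same order. The median depths were 3640 UMIs at d0, then 17963, 15688, 34949 and 15753. Each condition being 1 library, library and condition cannot be told apart, nor can fewer cells be told from less RNA per cell.

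Inmt and Hhip were lower in each of the other 4 libraries by more than the other markers were. Summed over all retained cells, Inmt stood at 119 CPM at d0, 0.891 at d3 post-fracture, 0.136 in the library labelled d5 post-fracture, 1.08 in the one labelled d3 post-polytrauma and 0.0346 at d5 post-polytrauma. Hhip stood at 21.0, 0.570, 1.49, 2.53 and 0.450 CPM in that order. Gdf10 stood at 38.4, 5.33, 8.11, 35.2 and 3.63 CPM, and Pi15 at 28.2, 5.59, 6.49, 32.1 and 7.27 CPM, the library labelled d3 post-polytrauma lying near d0 for both. Fbln1 stood at 105, 28.7, 29.5, 138 and 68.9 CPM, Mmp3 at 25.5, 23.4, 25.9, 84.5 and 14.8 CPM, and Stc1 at 8.32, 2.66, 7.50, 2.28 and 3.88 CPM. At equal depth Inmt was found in 9.02% of d0 cells and in 0.272% or less of the cells of any other library.

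**Figure D5:**
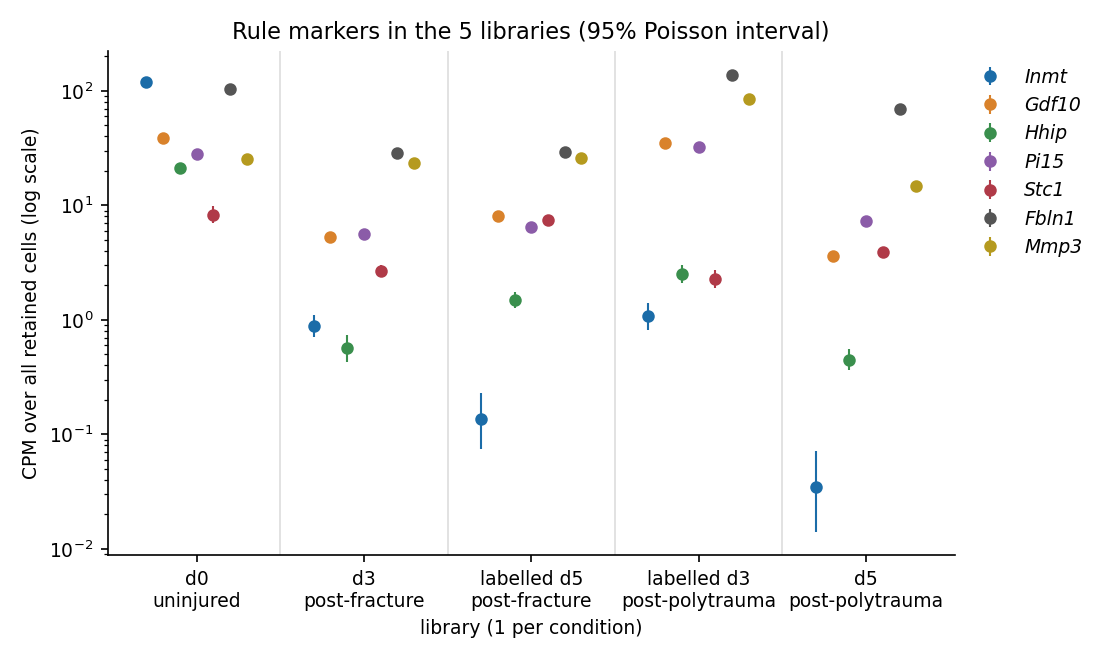
CPM (log scale) of the 7 rule markers over all retained cells of each of the 5 libraries, with 95% Poisson intervals, which are mostly narrower than the points. Inmt stands at 119 CPM at d0 and at 1.08 CPM or below in the other 4 libraries, while Fbln1 and Mmp3 overlap in level between d0 and the rest.

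Among the cells that passed the rule at full depth after injury, few held Inmt or Hhip. At least 1 of Inmt and Hhip was detected in 88.5% of the members at d0, against 15.3% of the 150 passing cells at d3 post-fracture, 17.2% of 203 in the library labelled d5 post-fracture, 10.0% of 349 in the one labelled d3 post-polytrauma and 9.52% of 315 at d5 post-polytrauma. Mmp3 was in 76.0%, 69.0%, 73.6% and 54.9% of these cells, against 25.5% of the members. Fbln1 was in 82.3% or more of the passing cells of each library.

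The companion genes of d0 were read in those cells as well, in samples that the gene calls did not use. The passing cells were chosen in each library by the rule markers themselves. Of the 179 genes higher at d0, 87 were measured at d3 post-fracture, and 34 of them were at a ratio of 2 or more in passing against other cells (39.1%), where 2.82% of all measured genes were. In the library labelled d3 post-polytrauma the count was 43 of 123 (35.0%, all genes 4.67%). It was 4 of 83 in the one labelled d5 post-fracture (4.82%, all genes 0.302%) and 11 of 98 at d5 post-polytrauma (11.2%, all genes 0.971%). Ratios above 1 were found for 83.9%, 80.5%, 85.5% and 75.5% of them in the same libraries, against 45.4%, 38.2%, 48.7% and 43.1% of all measured genes. Of the 17 named genes, C2 had ratios of 3.93, 1.65, 3.75 and 2.40 at d3 post-fracture, in the library labelled d5 post-fracture, in the one labelled d3 post-polytrauma and at d5 post-polytrauma, and C4b 4.45, 1.27, 7.93 and 3.68. Ccl19 had ratios of 12.9, 1.76 and 6.65 in the first 3 of these, on 115, 20 and 247 UMIs in the passing cells. Wnt5a was near even in all 4, at 1.01, 0.976, 1.29 and 1.05, and Abcc9 had ratios of 3.61, 2.04, 4.65 and 1.42 on 16, 5, 408 and 10 UMIs in the passing cells. C2 thus stayed at a ratio of 2 or more in every library but the one labelled d5 post-fracture, and Wnt5a reached it only at d0. The passing cells were deeper than the others in the library labelled d3 post-polytrauma, with medians of 37592 and 33604 UMIs. They were also deeper at d5 post-polytrauma (20816 and 15648.5 UMIs) and slightly so in the library labelled d5 post-fracture (16169 and 15674). At d3 post-fracture they were shallower, at 15582 and 18032 UMIs.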

How the data were processed

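GFP+ cells were captured with the 10x Chromium 3' v2 kit. Per the labels the authors used Cell Ranger (3.1.0 in the matrix headers, another version than the study's methods name), mm10 and Seurat 3.1.2, and they deposited raw UMI counts per gene and barcode. All 31055 genes were used as deposited. GENCODE M21 gave positions for 30934 genes (99.6%), and RefSeq GRCm38.p6 the promoter windows.

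Cells with 350 to 8000 genes, under 20% mitochondrial UMIs and at least 1000 UMIs were retained. Counts were summed over members and over other cells, and compared as CPM. A gene was measured at a mean of 10 CPM over both sets, and called at a ratio of 2 or of 0.5. Ratios carry conditional binomial, levels Poisson and shares Clopper-Pearson 95% intervals, all for counting error only, since UMIs of a cell are not independent and 1 library per condition leaves no replicates. Genes were named as the 15 highest and 10 lowest ratios of each comparison, among genes in at least 10% of the cells of the higher set. The 39 lists add to them. Members and lists were chosen with earlier results of these data known. Called genes of the lists were named, with up to 4 others per list by UMIs; further list genes given for comparison were chosen after their values were seen. Some genes that the counts include are not reported here.

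Equal depth means 1000 UMIs drawn per cell. Clusters used 2000 variable genes without the rule markers, 20 components and resolution 0.5. Scrublet's automatic threshold marked 3 of 5367 barcodes, so the 230 highest scores, at 0.8% per 1000 barcodes, were taken as an alternative and doublets were otherwise kept. The calls were tested on simulated counts, whose outcome is not reported here. Python 3.11.15, numpy 2.4.6, scipy 1.17.1, pandas 2.3.3, scanpy 1.11.5, matplotlib 3.10.9, R 4.3.3 and Seurat 5.3.0 were used.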

Additional observations from a re-analysis of the deposited data

How the results depend on the processing

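No paired analysis was possible because each condition has 1 library. The number of members rests on the rule: 653 cells had at least 2 of the 7 markers, 101 at least 4, 66 at least 3 at 1000 UMIs per cell, and 127 at least 3 of the 6 markers without Fbln1 (an alternative added after seeing the data). A call is a size of ratio, and its counts depend on these choices. Higher and lower genes against all other d0 cells numbered 80 and 287 with at least 2 markers, 395 and 794 with at least 4, 708 and 1125 for members chosen at 1000 UMIs, 1290 and 1296 with no minimum level, and 65 and 177 at a mean of at least 30 CPM. Against the FAP/MP-marked cells they numbered 80 and 111, 356 and 691, 671 and 1070, 1232 and 1081, and 55 and 91 in the same order. The cause was not tested. The share of members with at least 2 FAP/MP markers was 78.8% for members chosen at 1000 UMIs and 91.9% among cells of at least 2000 UMIs. In cells chosen by the other 6 markers, Gdf10 was found in 31.5%, Hhip in 12.6% and Fbln1 in 50.5% at 2000 UMIs per cell, and Hhip in 13.9%, Pi15 in 15.2% and Fbln1 in 55.9% at full depth. At a resolution of 0.3 the leading cluster held 81.3% of the members. The share of cells passing was, at full depth, 5.07% at d0, 2.68% at d3 post-fracture, 3.27% in the library labelled d5 post-fracture, 23.8% in that labelled d3 post-polytrauma and 2.64% at d5 post-polytrauma. At 2000 UMIs per cell it was 2.96% at d0, 0.149% at d3 post-fracture, 1.53% in the library labelled d3 post-polytrauma and 0.104% at d5 post-polytrauma, and with at least 2 markers at 1000 UMIs 5.16%, 0.644%, 0.629%, 3.47% and 0.435% in the order given for full depth. Of 103 values under other settings these 47 moved, a share leaving the 95% interval of its reported value or a count changing by more than 1.5 times, and the other 56 did not, among them those without shared barcodes, without the highest doublet scores, with median-of-ratios scaling, and, added after seeing the data, without the other cells of the leading cluster or with 2 markers.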
